A study of Mus musculus with 6 samples.

Results

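The E2F and retinoblastoma family comprised 10 genes here, namely the E2F genes E2f1, E2f2, E2f3, E2f4, E2f6, E2f7 and E2f8 and the pocket protein genes Rb1, Rbl1 (p107) and Rbl2 (p130). Its members were all probe sets that the annotation of an Affymetrix mouse array maps to exactly 1 of these symbols, which gave 21 probe sets of 45101 on the array. CTLA-4 KO cells were 5C.C7 T cells from CTLA-4-/- donors, and wild type cells were 5C.C7 T cells from donors with intact CTLA-4. Both kinds of donor were RAG2-/- and CD45.1, so the cells of both genotypes lacked RAG2 and carried the 5C.C7 receptor, which recognises a peptide of moth cytochrome c (MCC). CTLA-4 is an inhibitory receptor of activated T cells. The cells had been transferred into B10.A mice, activated there by MCC peptide with LPS, and sorted 4 days later, and each genotype had 3 arrays. The labels call the arrays biological replicates without naming animals, so p-values cover the spread among these samples only, part of which may be technical. CTLA-4 was absent from the donor mice themselves and not removed after transfer.

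E2F proteins bind DNA as dimers with DP proteins and control genes needed to enter and complete S phase. E2F1, E2F2 and E2F3 mainly activate, E2F4 mainly represses together with the pocket proteins p107 and p130, E2F6 represses through Polycomb proteins without pocket protein binding, and E2F7 and E2F8 repress without a DP partner or a pocket protein. Cyclin-dependent kinases phosphorylate RB and its relatives, which releases the activator E2Fs, and several family genes are themselves E2F targets. In T cells, antigen receptor signals drive this switch, and p130 is best known from resting cells.

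The promoters of the members whose values the results turn on are shown because E2F proteins act on E2F genes. Windows of 250 bases before and 50 after the annotated start came from RefSeq (GRCm38.p6), where 8 of the 10 genes matched. The letters searched on both strands were TTTCCCGC, TTTGGCGC, TTTGCCGC and TTTCGCGC for the E2F motif, and TTTGAA and TTCGAA for the CHR element of late cell cycle genes. Capitals mark these letters in either orientation. CCAAT was searched as well and is not marked.
E2f8 promoter, chr7:48881547-48881846, minus strand: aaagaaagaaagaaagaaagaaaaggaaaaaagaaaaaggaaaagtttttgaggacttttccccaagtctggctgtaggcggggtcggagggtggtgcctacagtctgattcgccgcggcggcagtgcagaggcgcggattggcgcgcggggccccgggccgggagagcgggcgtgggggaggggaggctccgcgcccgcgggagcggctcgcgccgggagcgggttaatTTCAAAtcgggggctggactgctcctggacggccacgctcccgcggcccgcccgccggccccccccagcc
E2f7 promoter, chr10:110745189-110745488, plus strand: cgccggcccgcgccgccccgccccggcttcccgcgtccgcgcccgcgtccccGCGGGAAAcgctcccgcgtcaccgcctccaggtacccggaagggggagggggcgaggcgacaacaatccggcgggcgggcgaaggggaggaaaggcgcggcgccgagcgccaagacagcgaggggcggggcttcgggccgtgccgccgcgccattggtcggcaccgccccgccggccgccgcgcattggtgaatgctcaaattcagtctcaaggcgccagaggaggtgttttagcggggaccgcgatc
E2f2 promoter, chr4:136172024-136172323, plus strand: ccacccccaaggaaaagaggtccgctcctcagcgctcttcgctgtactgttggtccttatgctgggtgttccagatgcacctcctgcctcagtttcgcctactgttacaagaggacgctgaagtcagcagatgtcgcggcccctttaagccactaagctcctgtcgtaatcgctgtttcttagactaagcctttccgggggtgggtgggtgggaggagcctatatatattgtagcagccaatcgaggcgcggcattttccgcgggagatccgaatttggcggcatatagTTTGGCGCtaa
Rbl2 promoter, chr8:91069807-91070106, plus strand: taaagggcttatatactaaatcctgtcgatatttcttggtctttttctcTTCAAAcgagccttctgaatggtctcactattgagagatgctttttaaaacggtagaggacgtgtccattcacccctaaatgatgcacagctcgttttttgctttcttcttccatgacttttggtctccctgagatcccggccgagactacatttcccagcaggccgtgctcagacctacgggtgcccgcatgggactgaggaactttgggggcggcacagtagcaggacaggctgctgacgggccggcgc
With the start base as position 0, the E2F letters lay at -198 to -191 in the E2f7 window, on the opposite strand, and at 39 to 46 in this E2f2 window, past the start. The E2f8 window held no exact match to the E2F letters, and inexact matches were not searched. Its CHR letters lay at -20 to -15 on the opposite strand, without overlap with its CCAAT match at -112 to -108. The Rbl2 window held CHR letters only, at -201 to -196. A second annotated start of E2f2 had CHR letters and no E2F letters, while Rbl1 (-18 to -11) and one start of E2f3 (-11 to -4) had E2F letters. In all, 4 of 8 members had an E2F match in at least 1 window, against 14 of 28 genes of a list of textbook E2F targets and 704 of 27025 genes with a window (2.6%). CHR letters were found in 4 of 8 members, 4 of 28 targets and 21.7% of all genes. CCAAT was found in 4 of 8 members, 19 of 28 targets and 41.1% of all genes. A match describes these letters and is no binding site.

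Ctla4, the targeted gene, had intensities of 812, 791 and 784 in CTLA-4 KO, against 5332, 4787 and 4587 in wild type, and whether its probe set lies inside the deleted stretch was not known. All arrays had a trimmed mean of 500.003. Replicate 2 of each genotype carried high Xist, 12599 in CTLA-4 KO and 14608 in wild type, so its donors read as female and those of replicates 1 and 3 as male. The T cell markers were bright on every array, with summed intensities of 58431 to 59900 in CTLA-4 KO and 58850 to 66871 in wild type. Of its 7 measured genes 0 were called by limma and 2, Cd28 and Cd3g, were lower in the block fit (adjusted p = 0.0295 and 0.0293), each with every CTLA-4 KO array below every wild type array, and their part in the results was not tested. Summed markers of myeloid and dendritic cells were 378 to 521 in CTLA-4 KO and 461 to 519 in wild type, and those of erythroid cells were 97.8 to 184 in CTLA-4 KO and 139 to 149 in wild type. CD8 T and NK cell markers summed to 652 to 855 in CTLA-4 KO and 369 to 778 in wild type. The 5 tested myeloid and dendritic genes had log2 differences of -0.80 to 0.60, and 1 lay above and 2 below on all CTLA-4 KO arrays. All 4 tested CD8 T and NK genes had positive differences (median 0.25), 1 without overlap. The 1 tested erythroid gene lay below on all CTLA-4 KO arrays (-0.49). Of all 11988 genes tested, 1461 lay above and 1264 below in this way. None of these marker genes passed in either fit, and their part in the results was not tested. B cell markers summed to 10747 to 11098 in CTLA-4 KO and 8776 to 11352 in wild type, nearly all of it Ighm. Cd79b, Ms4a1 and Blk were above the floor for testing, Ms4a1 and Blk with means of 58.8 and 56.8 over the 6 arrays, Cd79b at 78 to 109 in CTLA-4 KO and 100.5 to 118 in wild type, and all with overlapping genotypes, and the other 3 of the 7 measured B cell markers lay below it. The ratio of 5' to 3' Actb signal, a sign of RNA integrity, was 0.567, 0.691 and 0.544 in CTLA-4 KO and 0.418, 0.41 and 0.584 in wild type. Over all 27022 probe sets tested, 345 (1.28%) passed limma at an adjusted p of 0.05, 217 with higher and 128 with lower values in CTLA-4 KO, and with each array centred on its median the split was 244 higher and 54 lower.

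The question set by the design is which transcripts differ between CTLA-4 KO and wild type cells on day 4. Within the family, E2f8 was higher in CTLA-4 KO cells, and E2f7, both probe sets of E2f2, E2f4 and 1 of 2 probe sets of E2f6 had all CTLA-4 KO arrays above all wild type arrays without passing the test without the block. Rbl2 was the only member with a probe set whose CTLA-4 KO arrays all lay below. Of the 21 probe sets 18 passed the filter on dim values, and all 10 genes kept at least 1. At an adjusted p of 0.05 by limma, 1 of the 18 was called higher, against a background of 0.803% of all probe sets, and 0 were called lower, against 0.474%. When arrays were compared within pairs of the same replicate number (the replicate block), 4 were called higher, against 3.85%, and 1 lower, against 4.8%. CTLA-4 KO arrays lay above all wild type arrays for 6 of the 18, against 9.46% of all probe sets, and below for 1, against 11.5%. Without adjustment 7 of the 18 had p under 0.05, against 15.6% of all probe sets. By the brightest probe set of each gene, the median log2 difference of the 10 members was 0.15, beside 0.0021 over all 11988 genes tested. In bulk samples a change in the share of cells that express a gene and a change in RNA per cell cannot be told apart.

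**Figure D1:**
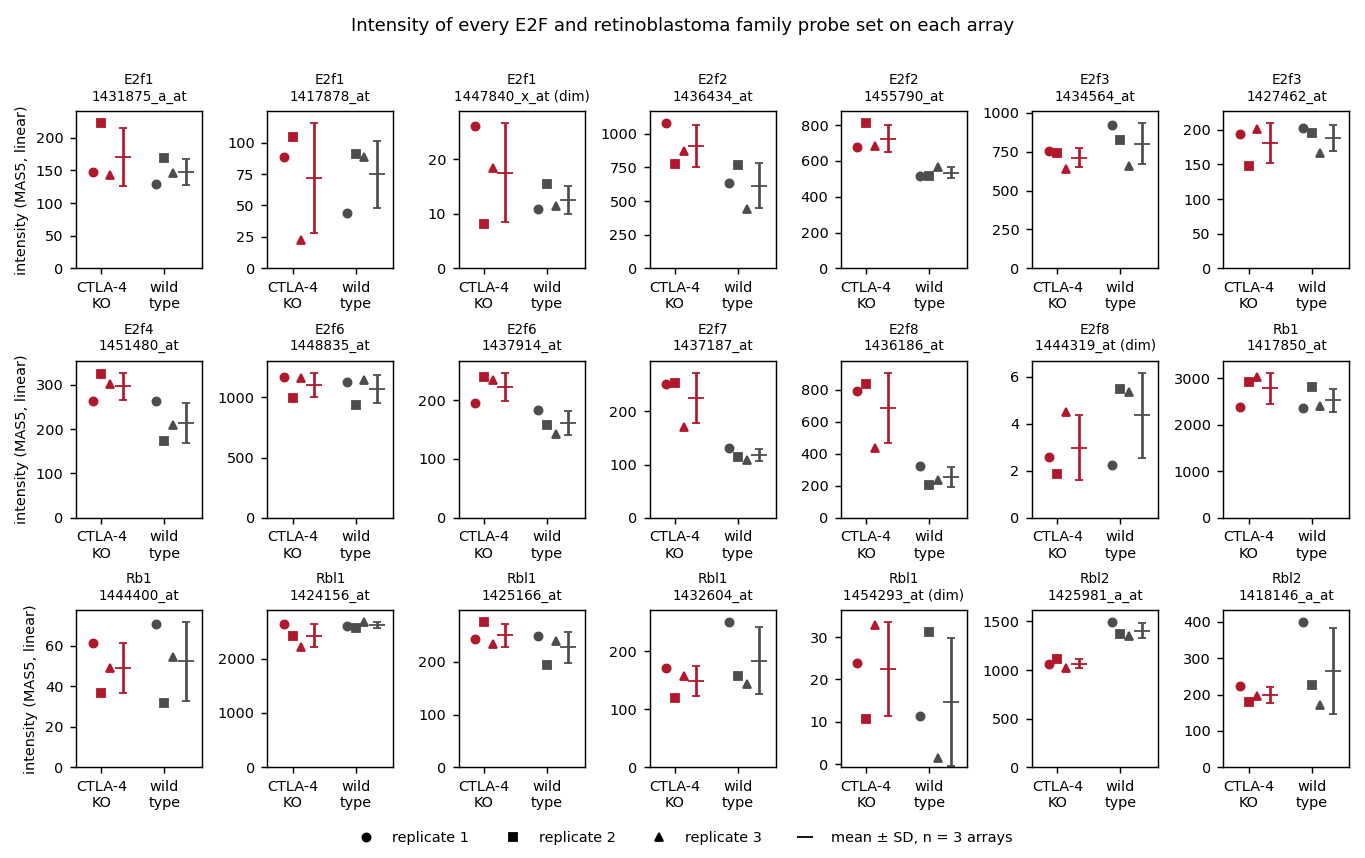
Intensity on each array (vertical axis, linear MAS5 intensity starting at or below 0) of all 21 family probe sets, CTLA-4 KO in red on the left and wild type in grey on the right, symbols marking replicates and bars the mean ± SD of 3 arrays. E2f8 1436186_at and E2f7 show no overlap between genotypes, and 3 probe sets marked dim lay below the floor for testing.

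E2f8, an atypical repressor that limits E2F activity in S phase, had intensities of 789, 836 and 436 in CTLA-4 KO arrays 1, 2 and 3, against 324, 202 and 234 in wild type arrays 1, 2 and 3 (probe set 1436186_at). The lowest CTLA-4 KO array, replicate 3, still lay above the highest wild type array. The means were 687 ± 219 in CTLA-4 KO and 253 ± 63.2 in wild type (SD, n = 3 arrays each), a ratio of 2.71, which corresponds to 1.35 ± 0.25 on the log2 scale (SE, limma adjusted p = 0.0338, in the block fit 0.00105). Within the pairs the log2 difference was 1.24, 1.96 and 0.85 for pairs 1, 2 and 3, so the direction was the same in male and female donors. The call was also lost with no filter on dim probe sets (adjusted p = 0.0936), without the intensity trend of limma (0.158) and without its moderation of the variances (0.286), at the same log2 difference. It was lost without CTLA-4 KO replicate 1 (adjusted p = 0.0783) or 2 (0.162) or wild type replicate 2 (0.0929) or 3 (0.114), while the log2 difference stayed between 1.19 and 1.65 over the 6 fits that left out an array. With the Actb ratio as a term the log2 difference was 1.20 (adjusted p = 0.338), and in male arrays alone it was 1.05 (0.296). A further probe set of E2f8, 1444319_at, was at 1.87 to 4.53 in CTLA-4 KO and 2.27 to 5.49 in wild type, near the lowest signals of the array, and was not tested.

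E2f7, the other atypical repressor, had 252, 254 and 171 in CTLA-4 KO, against 130, 114 and 109 in wild type (1437187_at). The genotypes did not overlap, and replicate 3 was again the lowest of the CTLA-4 KO arrays. The means were 226 ± 47.2 in CTLA-4 KO and 118 ± 11.4 in wild type, a ratio of 1.92, and the log2 difference of 0.84 ± 0.21 missed the threshold without the block (limma adjusted p = 0.0806) but passed with the replicate block (0.0158). The 3 pairs gave 0.87, 1.05 and 0.59, in the same order as for E2f8. With the Actb ratio as a term the log2 difference was 0.80 (adjusted p = 0.432).

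Among the activators, both probe sets of E2f2 passed in the block fit, and no probe set of E2f1 or E2f3 passed in either fit. E2f2, an activator that in mice also restrains T cell proliferation, had 1079, 776 and 874 in CTLA-4 KO, against 632, 771 and 441 in wild type by probe set 1436434_at. By its other probe set, 1455790_at, it had 679, 811 and 680 in CTLA-4 KO, against 514, 517 and 568 in wild type. By both probe sets the lowest CTLA-4 KO array was above the highest wild type array, although for 1436434_at the female arrays of the genotypes were almost level, at 776 in CTLA-4 KO and 771 in wild type. The log2 differences were 0.58 ± 0.20 (limma adjusted p = 0.204, in the block fit 0.0414) and 0.43 ± 0.13 (0.158, in the block fit 0.0471). The pairs gave 0.76, 0.01 and 0.96 for 1436434_at and 0.39, 0.63 and 0.25 for 1455790_at, so the probe sets differed in which pair was largest. When the kept probe sets of each gene were averaged before the test, E2f2 had a log2 difference of 0.50 (adjusted p = 0.0448), and E2f7 (0.035) and E2f8 (0.0171) also passed.

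E2f1, the first described activator, had 147, 223 and 143 in CTLA-4 KO and 129, 169 and 145 in wild type by its brightest probe set, 1431875_a_at. Its mean over the 6 arrays was 159, close to the 172 of E2f7. The genotypes overlapped, and the log2 difference was 0.17 with a 95% interval of -0.30 to 0.65 (limma adjusted p = 0.745). The probe set 1417878_at of E2f1 had 88.6, 105 and 22.2 in CTLA-4 KO and 44.1, 91 and 88.9 in wild type, with an interval of -1.11 to 0.78, so its sign was not settled. The third, 1447840_x_at, had at most 26.2 on any array and was not tested. E2f3 had 754, 744 and 640 in CTLA-4 KO and 921, 826 and 659 in wild type by 1434564_at, a log2 difference of -0.16 with an interval of -0.49 to 0.18 (adjusted p = 0.666). Its other probe set, 1427462_at, spanned 148 to 201 in CTLA-4 KO and 166 to 203 in wild type, with an interval of -0.47 to 0.36. For E2f3 these intervals leave out a doubling in either direction.

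Of the remaining repressors, E2f4 and 1 probe set of E2f6 were higher on all CTLA-4 KO arrays without passing either test. E2f4, which partners p107 and p130, had 264, 325 and 300 in CTLA-4 KO and 262, 173 and 208 in wild type. The lowest CTLA-4 KO value exceeded the highest wild type value by less than 2 units of intensity. The log2 difference was 0.45 ± 0.19 (limma adjusted p = 0.274, in the block fit 0.144), with pairs at 0.01, 0.85 and 0.50. E2f6 disagreed between its probe sets. The bright one, 1448835_at, had 1166, 992 and 1162 in CTLA-4 KO and 1129, 934 and 1146 in wild type, level within 0.09 on the log2 scale in every pair, with an interval of -0.24 to 0.34. The dimmer one, 1437914_at, had 195, 239 and 235 in CTLA-4 KO, against 184, 157 and 142 in wild type, a log2 difference of 0.43 ± 0.18 (adjusted p = 0.281, in the block fit 0.168).

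**Figure D2:**
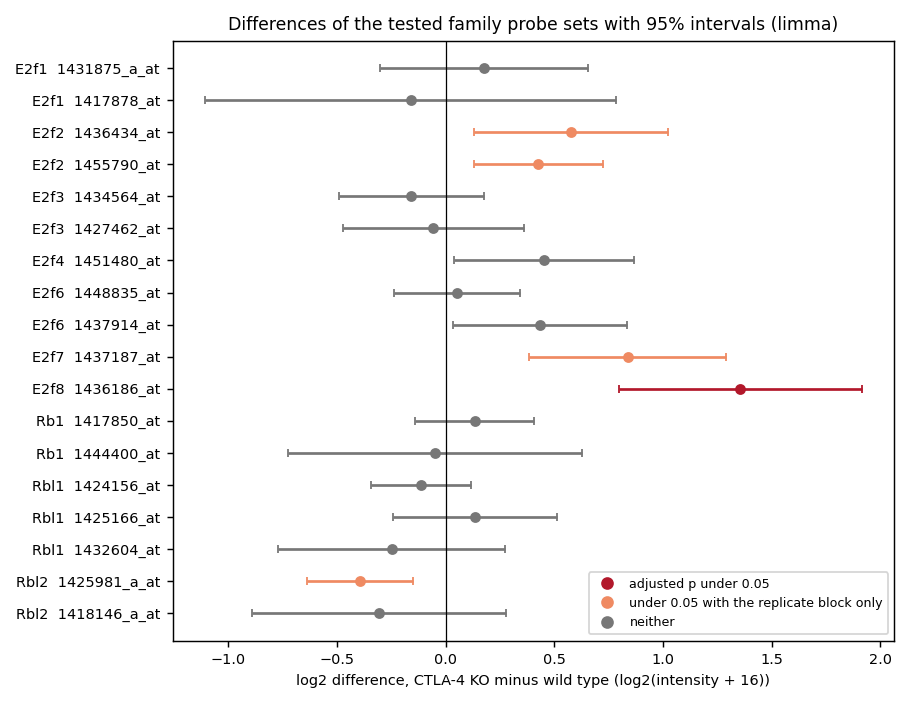
Log2 difference (horizontal axis, CTLA-4 KO minus wild type on the log2(intensity + 16) scale) of the 18 tested family probe sets with 95% limma intervals. E2f8 at 1.35 passed the test without the block, and E2f7, both E2f2 probe sets and Rbl2 1425981_a_at passed with the replicate block.

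Of the pocket protein genes, none had a probe set that passed without the block. Rb1, the retinoblastoma protein gene, had 2388, 2919 and 3025 in CTLA-4 KO and 2358, 2811 and 2410 in wild type (1417850_at). Replicates 1 and 2 were nearly level between genotypes and replicate 3 was higher in CTLA-4 KO, which gave a log2 difference of 0.13 with an interval of -0.14 to 0.40 (limma adjusted p = 0.654). The dim probe set 1444400_at of Rb1 had 61.1, 36.5 and 48.8 in CTLA-4 KO and 70.5, 31.9 and 54.2 in wild type, with an interval of -0.73 to 0.63. Rbl1, or p107, which is itself an E2F target and rises in cycling cells, had 2633, 2415 and 2215 in CTLA-4 KO and 2603, 2571 and 2672 in wild type by its brightest probe set 1424156_at. The log2 difference was -0.11 with an interval of -0.34 to 0.11 (adjusted p = 0.645), so a change of the size seen for E2f8 or E2f7 lay outside it. Its probe sets 1425166_at and 1432604_at had log2 differences of 0.13 and -0.25 with overlapping genotypes, and 1454293_at, at 1.47 to 32.8 over the 6 arrays, was not tested.

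Rbl2, or p130, was the member with a probe set called lower in the block fit, 1 of 18 against the 4.8% of all probe sets, and it did not pass without the block. By their brightest probe sets Rbl2, E2f3 and Rbl1 had negative differences, and no difference between members was tested. By probe set 1425981_a_at it had 1059, 1114 and 1026 in CTLA-4 KO, against 1493, 1372 and 1353 in wild type. Every CTLA-4 KO array lay below every wild type array, and the 3 arrays of each genotype lay close together. The means were 1066 ± 44.2 in CTLA-4 KO and 1406 ± 76 in wild type (SD, n = 3), a ratio of 0.758, and the log2 difference was -0.39 ± 0.11 (limma adjusted p = 0.118, in the block fit 0.0281), with pairs at -0.49, -0.30 and -0.39. It was -0.39 (adjusted p = 0.471) when the Actb ratio was a term, and -0.30 (adjusted p = 0.343) with arrays centred on their median. The probe set 1418146_a_at of Rbl2 had 223, 180 and 196 in CTLA-4 KO and 399, 225 and 172 in wild type. The genotypes overlapped, with wild type replicate 3 below every CTLA-4 KO array, and it had a log2 difference of -0.31 ± 0.26 (adjusted p = 0.626).

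**Figure D3:**
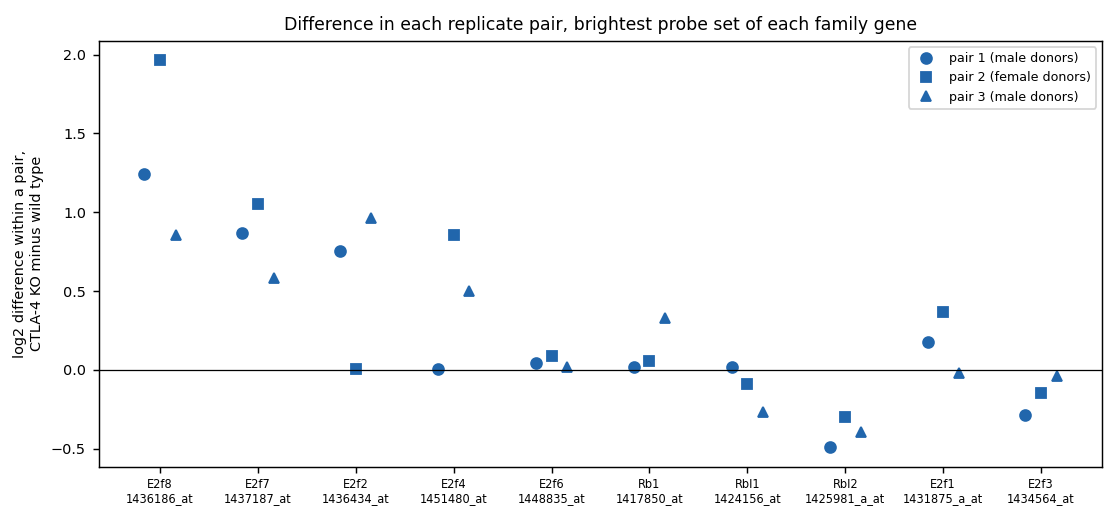
Log2 difference within each replicate pair (vertical axis, CTLA-4 KO minus wild type) for the brightest probe set of each family gene, with symbols for pairs 1, 2 and 3. The pairs of E2f8 (0.85 to 1.96) and E2f7 (0.59 to 1.05) all lay above 0 and those of Rbl2 (-0.49 to -0.30) all below.

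The DNA-binding partners of the E2Fs and their remaining relative E2f5 had 0 of 3 genes called by limma. Against 3.45% of all genes, 1 was called lower in the block fit. It was Tfdp2 (DP2), the only gene of the list with an unadjusted p under 0.05 by limma, with 475, 548 and 430 in CTLA-4 KO, against 896, 838 and 664 in wild type, a log2 difference of -0.70 ± 0.16 (adjusted p = 0.061, in the block fit 0.00389). Its 3 dimmer probe sets had negative differences between -0.57 and -0.17, and none of them passed either test. Tfdp1 (DP1) had a log2 difference of 0.22 (adjusted p = 0.388) and E2f5 0.06 (0.911).

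Upstream of the pocket proteins, 10 of 13 listed cyclin D, kinase and inhibitor genes were tested, and 1 was called higher and 0 lower, against 1.23% and 0.517% of all genes, whereas the block fit called 4 higher and 1 lower, against 5.46% and 3.45%. Cdk6, a kinase of RB, had 4879, 4867 and 4880 in CTLA-4 KO, against 2552, 3579 and 2329 in wild type (log2 difference 0.81 ± 0.14, limma adjusted p = 0.0278), and its other probe set also passed (0.0454). Ccnd2, the cyclin D2 partner of that kinase, had 6782, 5771 and 4235 in CTLA-4 KO, against 8435, 8240 and 7463 in wild type by its brightest probe set (log2 difference -0.55, adjusted p = 0.112, in the block fit 0.0066). All 7 tested probe sets of Ccnd2 had every CTLA-4 KO array below every wild type array, and 4 of the dimmer ones passed by limma. The inhibitor genes Cdkn2d (p19) and Cdkn1a (p21) had log2 differences of 0.84 and 0.92 (adjusted p = 0.0548 and 0.125, in the block fit 0.000818 and 0.0264).

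Textbook E2F target genes of the G1/S transition had positive differences for 30 of 32 tested genes, and 6 were called higher and 0 lower by limma, against 1.23% and 0.517% of all genes tested. The median log2 difference of the list was 0.50, beside 0.0021 over all genes, and 0.48, 0.69 and 0.34 in pairs 1, 2 and 3. With the replicate block 21 were called higher and 0 lower, against 5.46% and 3.45%. Rrm2, a subunit of ribonucleotide reductase, had 4477, 4816 and 2911 in CTLA-4 KO, against 1922, 1671 and 1606 in wild type, and Ccna2, the S phase cyclin A2, had 1488, 1549 and 986 in CTLA-4 KO, against 638, 570 and 484 in wild type. Their log2 differences were 1.19 ± 0.17 (adjusted p = 0.0126) and 1.21 ± 0.18 (0.0151). As for E2f8 and E2f7, CTLA-4 KO replicate 3 was the lowest of its group for both. The mismatch repair gene Msh6 (0.57, adjusted p = 0.0301) and Uhrf1, which recruits the maintenance DNA methyltransferase (0.99, 0.033), also rose. The 2 genes with negative differences were Mcm6 (-0.22, adjusted p = 0.446), a helicase subunit, and the phosphatase gene Cdc25a (-0.14, 0.613), named here after their values were seen. Leaving out CTLA-4 KO replicate 1, 2 or 3 gave 3, 0 or 7 calls, and leaving out wild type replicate 1, 2 or 3 gave 6, 2 or 0. With the Actb ratio as a term 0 were called and the list median was 0.47.

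**Figure D4:**
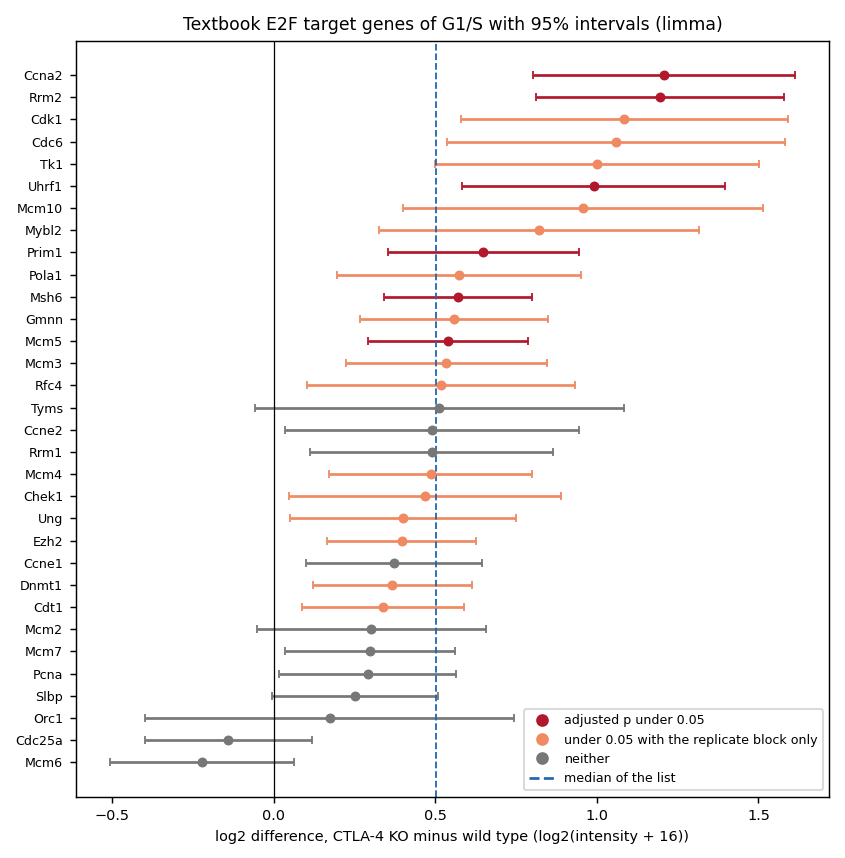
Log2 difference (horizontal axis, CTLA-4 KO minus wild type) of the 32 tested textbook E2F target genes with 95% limma intervals, sorted by size, and the list median of 0.50 as a dashed line. Only Mcm6 and Cdc25a lie below 0.

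By the brightest probe set of each gene, the complexes through which pocket proteins and E2F6 act had 0 calls in either fit. The MuvB core holds p130 and E2F4 on promoters of resting cells. Of 7 genes of this core and its listed partners, 0 passed by limma and 0 with the block, with a median log2 difference of 0.06. Lin37 was at 0.28 (limma adjusted p = 0.348) and Lin52 at -0.38 (0.357). Of 9 tested corepressors of RB and p130, 0 passed in either fit (median 0.06), and Hdac2, a histone deacetylase, was at 0.21 (adjusted p = 0.367). Of 9 tested genes of the E2F6 Polycomb complex, 0 passed in either fit, 8 had negative differences, and the median was -0.14, with Max, the dimer partner of MYC and MGA, at -0.42 (adjusted p = 0.339). No brightest probe set of these 3 lists had an unadjusted p under 0.05 by limma, but dimmer ones did. Over all their tested probe sets, 3 of 15, 3 of 29 and 1 of 16 had such a p, against 15.6% of all probe sets, and 0 passed after adjustment. In the block fit 4 of these dimmer probe sets passed, named here after their values were seen. They were 1 higher and 1 lower of 15, 2 lower of 29 and 0 of 16, against 3.85% higher and 4.8% lower of all probe sets. Rbbp4, a histone-binding MuvB subunit, had 653, 573 and 707 in CTLA-4 KO, against 1045, 905 and 901 in wild type by 1456260_at (log2 difference -0.55 ± 0.13, limma adjusted p = 0.0783, in the block fit 0.0116), while its 3 other tested probe sets had positive differences and overlapping genotypes. A pair of dimmer probe sets of Arid4b, a partner of RB, were lower (-0.68 and -0.88, in the block fit 0.0478 and 0.0321). Their limma adjusted p was 0.227 and 0.195, and the genotypes overlapped for the first, 1451847_s_at. A further Arid4b probe set, 1431031_at, was at -0.59 (in the block fit 0.0876), also with overlap. The brightest probe set of Arid4b was at -0.038 (limma adjusted p = 0.906) with overlapping genotypes. The mitotic activator gene Foxm1 was higher by 1417748_x_at (0.93, limma adjusted p = 0.374, in the block fit 0.0427), although the genotypes overlapped. Its probe set 1448834_at was at 1.29 (in the block fit 0.0595), and its brightest was at -0.024 (limma adjusted p = 0.967), both with overlap. Of 5 genes of E2F and p27 turnover, 1 was called higher, against 1.23% of all genes. It was Cks1b, a cofactor of the SKP2 ubiquitin ligase, with 7008, 7823 and 6519 in CTLA-4 KO, against 4477, 4400 and 4579 in wild type (0.66 ± 0.10, limma adjusted p = 0.0126). The dimmer probe set 1448441_at of Cks1b overlapped between genotypes and had a log2 difference of 0.58 (adjusted p = 0.286), with pair 3 at -0.18. Ccnf, the cyclin F that targets E2F7 and E2F8 for degradation in human cells, had a log2 difference of 0.73 (adjusted p = 0.169, in the block fit 0.0113). With the block 2 of the 5 were called higher, against 5.46% of all genes.

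The genes whose log2 values were most like those of E2f8 over the 6 arrays, among 11978 genes outside the family, were Aurkb, a kinase of chromosome segregation (Pearson r = 0.999), the exonuclease gene Exo1 (0.998) and the mitotic cyclin gene Ccnb2 (0.996). Their log2 differences were 1.33, 1.04 and 1.22 (limma adjusted p = 0.0266, 0.062 and 0.0321). After the genotype means were removed, r with E2f8 was 0.995, 0.991 and 0.981. The genes were picked by r on these same arrays, so these values are no separate support. The genes most like Rbl2 1425981_a_at were Ro60 (r = 0.996, and 0.95 with the genotype means removed), the guanylate-binding protein gene Gbp7 (0.994 and 0.934) and the helicase gene Fbh1 (0.993 and 0.915). The values of r over all 6 arrays are the highest among many genes on arrays that share one scaling. The genotype difference adds to each of them, and they are given as a description.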

How the data were processed

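Per the labels' protocols, RNA of sorted T cells was isolated with Trizol, and 2 µg per sample were turned into biotinylated cRNA for Affymetrix arrays. The authors deposited linear intensity values for 45101 probe sets on 6 arrays. Partek and MAS5 are named, without versions, per the submitters' processing notes. All arrays share a trimmed mean of 500.003, a global scaling done before deposit, and faint MAS5 values are noisy. Groups and replicate numbers came from the sample titles.

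Values were turned into log2(intensity + 16). The 64 AFFX controls were left out, and probe sets were kept where the mean of all 6 arrays reached the 40th percentile, an intensity of 37.8. The 27022 kept probe sets were fitted together, without a block, by lmFit and then eBayes with a trend on intensity (limma 3.58.1, R 4.3.3), with 4 residual degrees of freedom per probe set. P-values were two-sided and adjusted by Benjamini-Hochberg over all of these. A log2 difference is CTLA-4 KO minus wild type with its SE, and the added 16 makes changes of dim genes look smaller. Same-numbered arrays were treated as pairs in the block fit, although the sample titles give replicate numbers only. Deviations from the genotype means correlated at 0.37, 0.234 and 0.25 for arrays with the same number 1, 2 and 3. For other numbers r was -0.0093 or less. Deviations sum to 0 within a genotype, so positive r for equal numbers pushes the others down. Replicate 2 also read as female in both genotypes, so these values are no independent evidence of pairs. The number of arrays limits the precision.

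Symbols came from the array annotation, updated through gene IDs to RefSeq (GRCm38.p6), and a gene in a list was read by its brightest kept probe set. Named were all member probe sets, up to 4 genes with the smallest p of each of 7 pathway lists, and the 3 genes most like the leading member in each direction. Members and lists were chosen with earlier results of these data known, so they are no independent support. Alternatives covered the block, scaling, pseudocount, dimness filter, moderation, array weights, donor sex, RNA integrity, thresholds, probe set choice and leaving out each array.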

Additional observations from a re-analysis of the deposited data

How the results depend on the processing

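Of 18 member probe sets 1 was called higher and 0 lower, and of 32 E2F target genes 6 were called higher. With the replicate block it was 4 and 1, and 21. No dimness filter gave 0 member and 2 target calls. There were 0 of both without the intensity trend, without moderation, in male arrays, with the Actb term or at an adjusted p of 0.01. A threshold of 0.1 gave 2 and 10, averaging the probe sets of each gene gave 3 and 12, and the Gapdh term gave 2 and 7. Where limma made 0 member calls, the unadjusted p was under 0.05 for 4 to 7 member probe sets and for 10% to 16% of the whole array as tested. Leaving out 1 array gave 0 to 1 member calls and 0 to 7 target calls. Over all probe sets 345 calls became 2337 with the block, 22 with the Actb term, 47 in male arrays, 111 with no filter, 46 at 0.01, 841 at 0.1, 21 without the trend and 0 without moderation, where 3613 had an unadjusted p under 0.05, and 44 to 221 without 1 array. The signs of E2f8, E2f7, both E2f2 probe sets, E2f4, E2f6 1437914_at and Rbl2 1425981_a_at held in all alternatives run. The log2 differences that changed sign were uncalled. With median centring E2f3 1427462_at was 0.031, Rb1 1444400_at 0.039, Cul1 0.00096 and Skp2 0.0040. With quantile normalization E2f3 1427462_at was 0.010 and Rb1 1444400_at 0.061. In male arrays E2f3 1427462_at was 0.094, Rbl1 1425166_at -0.033 and E2f5 -0.025. With the Actb term E2f3 1434564_at was 0.0010, E2f3 1427462_at 0.19, Rbl1 1432604_at 0.081, Rbl2 1418146_a_at 0.12 and E2f5 -0.25, and with the Gapdh term E2f5 was -0.032. With probe sets averaged Rbbp4 was -0.013, Dyrk1a -0.027, Hdac2 -0.071 and Skp2 0.043. Without 1 array the range was -0.013 to 0.28 for E2f1 1431875_a_at, -0.47 to 0.36 for E2f1 1417878_at, -0.14 to 0.069 for E2f3 1427462_at, -0.043 to 0.13 for E2f6 1448835_at, -0.28 to 0.14 for Rb1 1444400_at, -0.56 to 0.015 for Rbl2 1418146_a_at, -0.072 to 0.25 for E2f5, -0.082 to 0.21 for Dyrk1a and -0.32 to 0.20 for Skp2. The cause was not tested.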
